A study of Glycine max with 4 samples.

Results

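The untransformed Thorne plant was compared with the 3 transgenic plants of the series, 4 libraries in all, gene by gene. The members were taken from the labels alone: 1 library came from a plant labelled as not transgenic, and 3 came from plants labelled as transgenic. RNA sequencing was done on shoot (meristem) tips of soybean, Glycine max. All 4 plants were of cultivar Thorne, were grown in a greenhouse for 1 month, and gave a tip of 5 cm that included immature trifoliate leaves. Transgenic plants 1 and 2 (T162821 and T162822) had the activation tag mmPing20F inserted on chromosome 8, at position 2785626. Transgenic plant 3 (T162845) lacked that insertion and held the transposase expression construct. The series' design text spells its name T1622845, and both spellings were taken as the same plant. The untransformed plant carried neither. Whether transgenic plants 1 and 2 also held the transposase construct is not stated in the labels. The build of the position, the number of transformation events behind the 3 transgenic plants and any batch of growth or preparation are not stated in the sources at hand. Each plant gave 1 library, so p-values below rest on the spread between the 3 transgenic libraries, to which the untransformed library adds nothing.

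mPing is a short DNA transposon from rice that cannot move by itself and needs a transposase made elsewhere. An activation tag built on it carries sequence meant to raise the expression of genes beside its insertion. The shoot tip holds the apical meristem, the dividing tissue that gives rise to stem and leaves, together with young leaves at several stages of expansion. A whole-tip library therefore sums dividing, expanding and greening tissue. In such a library fewer cells of a type and less RNA per cell cannot be told apart.

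The 4 libraries held between 27900266 and 49210060 counts, and between 44347 and 45526 genes had at least 1 count. Levels are given as normalized counts, the authors' counts divided by 1 size factor per library. They compare libraries for one gene and are not corrected for gene length. The genes carry identifiers such as Glyma.10G159700, where the 2 digits ahead of the letter G name the chromosome and the rest of the number gives the order along it. None of the identifiers could be paired with a gene name, so no function is given and the label of the tissue could not be checked against marker genes.

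The untransformed plant lay outside the transgenic plants over most of the transcriptome, in both directions. With the authors' size factors the numbers above and below were nearly equal. Over the 32967 genes whose mean reached 50 normalized counts, the untransformed value was above all 3 transgenic plants at 14739 (44.7%) and below all 3 at 14090 (42.7%). It fell inside their range at 4138 genes (12.6%). At 4881 genes (14.8%) it was over 2-fold above the highest transgenic plant, and at 4614 genes (14%) over 2-fold below the lowest. Folds in these counts are on the log2(normalized count + 1) scale, which understates changes of low genes. With library totals in place of size factors the balance turned, to 11047 genes above and 17907 below at any size, and 3586 above and 6421 below at over 2-fold. These counts are descriptions, since there is 1 untransformed library.

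**Figure D1:**
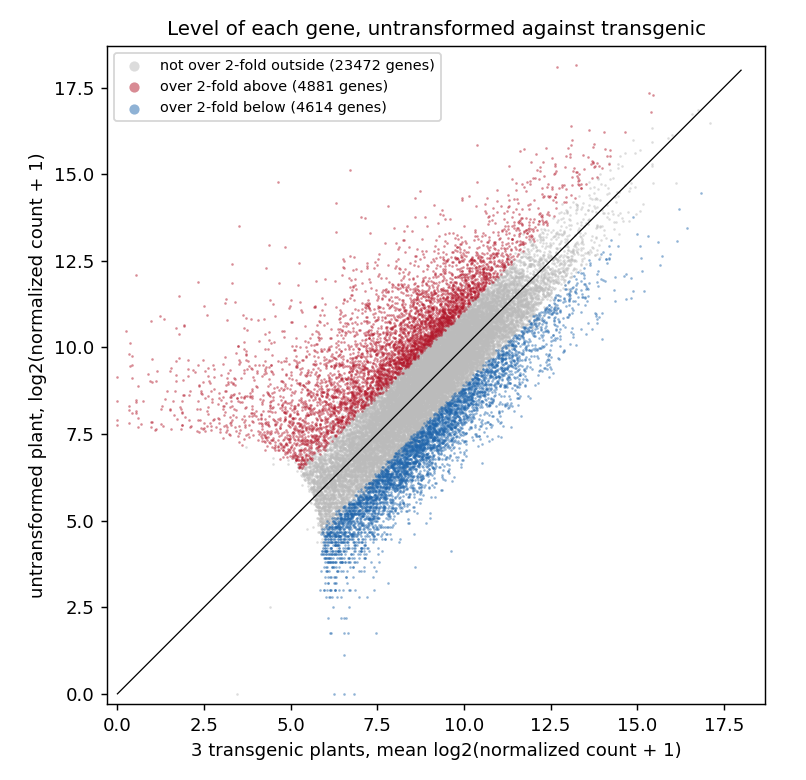
Each point is 1 of 32967 genes, with the mean of the 3 transgenic plants on the horizontal axis and the untransformed plant on the vertical axis, both as log2(normalized count + 1). The 4881 genes over 2-fold above the transgenic range (red) reach farther from the line of equal level than the 4614 genes below it (blue).

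The transgenic plants differed little among themselves by comparison. Their highest value was a median of 1.23-fold above their lowest, and 1.73-fold at the 90th percentile of genes. The coefficient of variation over the 3 plants had a median of 10.8% over the 31946 genes with a transgenic mean of at least 50. The median size of the log2 difference between the untransformed plant and the transgenic mean was 0.687, against a median log2 range of 0.303 within the transgenic plants. At 21273 genes (64.5%) the gap from the untransformed value to the nearest transgenic plant was larger than the whole transgenic range.

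**Figure D2:**
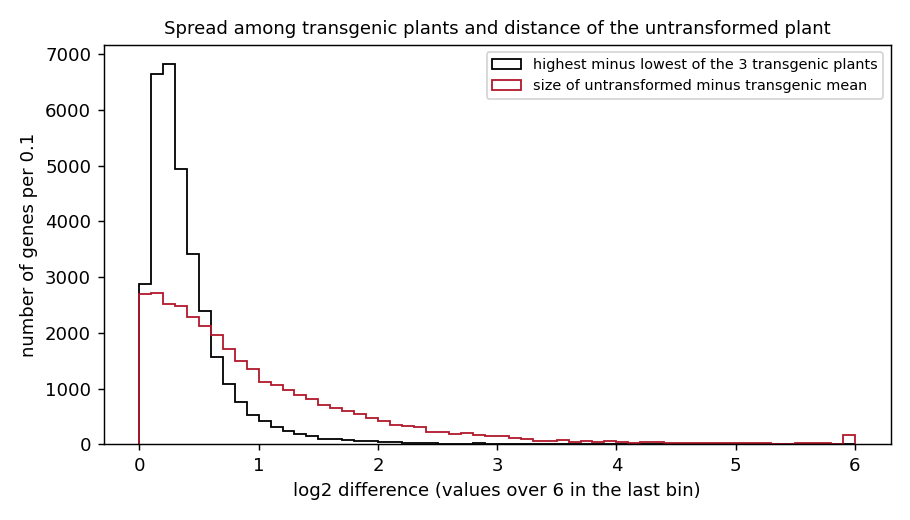
Number of genes (vertical axis) by log2 difference (horizontal axis) for the range of the 3 transgenic plants (black) and for the distance of the untransformed plant from their mean (red). The medians over the 32967 genes are 0.303 and 0.687.

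The distance from the untransformed plant was also taken for each transgenic plant alone. These values share the 1 untransformed library, so their likeness is no separate evidence. The untransformed plant was a median of 1.58-fold and 1.62-fold apart from transgenic 1 and 2, which carried the tag. It was 1.64-fold apart from transgenic 3, which did not carry the tag. The 3 pairs of transgenic plants were a median of 1.12-fold to 1.16-fold apart. In all, 14336 genes were over 2-fold from at least 1 transgenic plant, and 9495 of them were over 2-fold from every transgenic plant in one direction. At 14 genes the untransformed plant was over 2-fold above one transgenic plant and over 2-fold below another. Transgenic 3 was the farthest at high folds, with 1315 genes over 8-fold lower in it than in the untransformed plant, against 968 for transgenic 1 and 1051 for transgenic 2.

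Genes that varied among the transgenic plants were also mostly displaced in the untransformed plant. The transgenic range was over 2-fold at 1914 genes (5.81%). The untransformed value fell inside that wide range at 378 of them (19.7%) and was over 2-fold outside it at 991 (51.8%). That share was 28.8% over all 32967 genes. The 2 shares are not evenly comparable, since the minimum mean of 50 includes the untransformed value. Only 31946 of the 32967 genes reached that mean in the transgenic plants. The others entered through a high untransformed value, and their transgenic range can be wide from a few counts alone. How much of the difference this filter made was not tested.

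With edgeR's quasi-likelihood test on the counts, 10555 of 40884 genes tested (25.8%) were higher and 9510 (23.3%) were lower in the untransformed library at a Benjamini-Hochberg adjusted p of 0.05. The spread in this test came from the 3 transgenic plants, and the lone untransformed plant was assumed to vary like them. A call therefore says that this library differs from the transgenic ones, and whether transformation, the plant or its handling goes with the difference cannot be told apart. Of the called genes, 3676 higher and 2933 lower ones had a fitted change under 2-fold. At an unadjusted p under 0.05 there were 11829 higher and 11256 lower genes. Nearly all genes over 2-fold above or below the transgenic range were also called in that direction. The range and the test rest on the same 4 libraries, so this overlap is no separate evidence.

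The balance of higher and lower calls depended on the scaling. Of the called genes 52.6% were higher with TMM scaling, 42.5% with upper-quartile scaling and 38.4% with library totals alone. Scaling by totals moved the median gene by -0.278 on the log2 scale. The mean normalized count per gene was 716 in the untransformed library and 586 to 594 in the transgenic libraries. The split of all calls into higher and lower is thus not a property of the genes alone.

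Most large differences were higher levels in the untransformed plant. Over 4-fold outside the transgenic range there were 1918 genes above (5.82%) and 927 below (2.81%), and over 8-fold 837 above (2.54%) and 85 below (0.258%). At over 32-fold the counts were 199 and 5. The excess held with library totals in place of size factors, with 648 genes above and 212 below at 8-fold. Among genes whose mean over the 4 libraries reached 1000 there were 172 above and 22 below. That mean includes the untransformed value, through which the genes above can reach it, so this count is no separate evidence. The minimum mean acts unequally on low genes, since a gene silent in the 3 transgenic plants needs a higher level in the untransformed plant to be counted than the reverse. The 837 genes had a median of 38.6 normalized counts in the transgenic plants and 943 in the untransformed plant. The 85 genes had a median of 233 in the transgenic plants and 20.0 in the untransformed plant. The 837 genes took 7.45% of the untransformed library and between 0.397% and 0.502% of each transgenic library, a direction set by how they were chosen.

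The 2 higher genes with the smallest p were nearly silent in the transgenic plants and abundant in the untransformed one. Glyma.10G159700, on chromosome 10, had 11.5, 8.35 and 7.43 normalized counts in transgenic plants 1 to 3 and 5396 in the untransformed plant (exact Poisson 95% interval 5241 to 5554, counting error only). Its raw counts were 17, 7 and 7 against 4595. The transgenic mean was 9.08 ± 2.12 (SD, n = 3), and the pooled ratio was 568 with a counting interval of 400 to 837. The groups did not overlap, but the untransformed value was above all 3 transgenic plants at 44.7% of genes. edgeR gave a log2 fold change of 9.12 ± 0.19 (SE), with an adjusted p of 1.7e-05. Glyma.12G100500, on chromosome 12, had 1 raw count in each transgenic library and 1477 in the untransformed one. Its normalized counts were 0.674, 1.19 and 1.06 against 1734 (interval 1647 to 1825). The pooled ratio was 1890, with a counting interval of 644 to 9160, and the edgeR adjusted p was 1.7e-05.

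The 2 lower genes with the smallest p kept a detectable level in the untransformed plant. Glyma.12G111600, on chromosome 12, had 842, 738 and 799 normalized counts in the transgenic plants and 16.4 in the untransformed plant (interval 8.99 to 27.6). The transgenic mean of 793 ± 52.1 (SD, n = 3) was 48.2-fold above the untransformed value. The edgeR log2 fold change was -5.60 ± 0.26 (SE), with an adjusted p of 4.3e-05. Glyma.05G218600, on chromosome 5, had 2181, 2070 and 2154 normalized counts in the transgenic plants, a mean of 2135 ± 58.1 (SD, n = 3), and 231 in the untransformed plant (interval 200 to 266). It fell 9.23-fold, by a log2 change of -3.23 ± 0.18 in edgeR (adjusted p = 6.4e-05). At each of these 4 genes the gap between the plants was far wider than the spread of the transgenic plants. A choice by smallest p favours such genes, so this is no separate evidence.

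**Figure D3:**
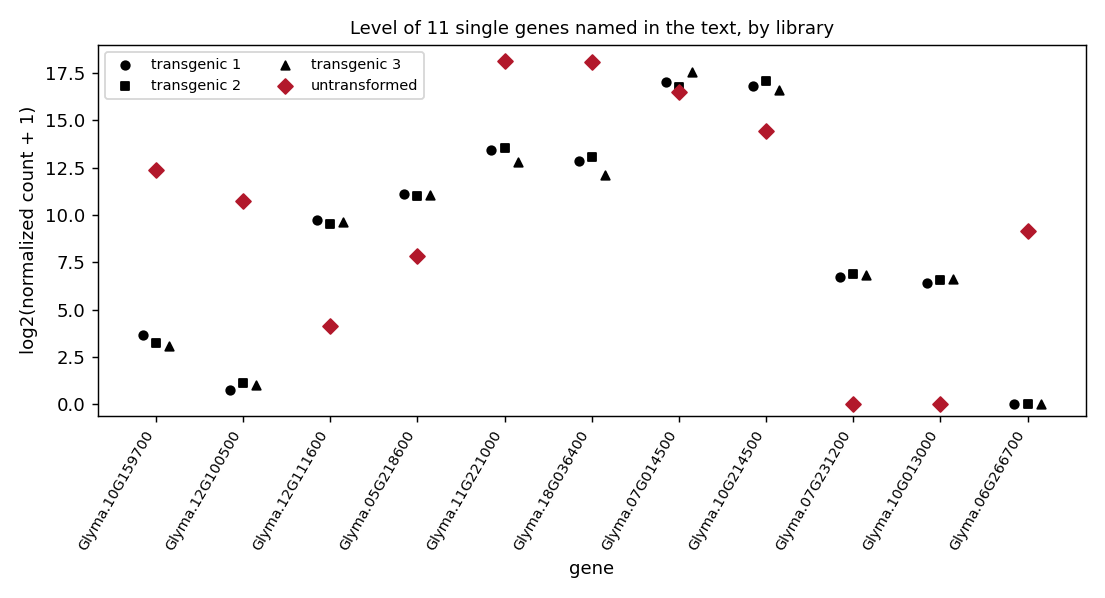
Level of 11 single genes named in the text, as log2(normalized count + 1), in transgenic plants 1 to 3 (black) and in the untransformed plant (red). The untransformed plant lies outside the 3 transgenic plants at all 11 genes, but at Glyma.07G014500 the gap did not pass the test. Over all 32967 genes it was above all 3 transgenic plants at 44.7% and below all 3 at 42.7%. The 11 genes were picked by their values, so their place outside is no separate evidence.

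The most abundant transcripts of the shoot tip also changed places. The following abundant genes were chosen after their values were seen. Glyma.11G221000 and Glyma.18G036400 were the most abundant genes of the untransformed library. Glyma.11G221000 had 10904, 11855 and 7015 normalized counts in the transgenic plants and 288962 in the untransformed plant, 29.1-fold above the transgenic mean of 9925 ± 2564 (SD, n = 3). Glyma.18G036400 had 7348, 8695 and 4424 against 281636, 41.3-fold above the mean of 6822 ± 2183. Both were lowest in transgenic 3, and both rose in edgeR's test, with adjusted p-values of 1.19e-04 and 1.33e-04.

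Glyma.10G214500 had the largest drop in normalized counts. It stood at 116238, 139745 and 98096 in the transgenic plants and at 22337 in the untransformed plant, 5.28-fold below their mean, with an edgeR adjusted p of 0.00202. The gene with the highest transgenic mean, Glyma.07G014500, was at 131315, 112111 and 192349, against 91445. Its transgenic mean of 145258 ± 41897 (SD, n = 3) was 1.59-fold above the untransformed plant, and this difference did not pass the test (edgeR adjusted p = 0.183).

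Of the 100 most abundant genes of each library, 74 were shared by all 3 transgenic plants, and 25 of those 74 were also among the 100 of the untransformed plant. There, 65 of the 100 were in no transgenic plant's 100, and they were between 2.04-fold and 786-fold above the transgenic mean, with a median of 5.82-fold. The 49 genes that left the list ran from 0.970-fold to 12.1-fold in transgenic over untransformed plants, with a median of 2.36. The choice by rank largely fixed the direction of both sets of folds. The untransformed library was the more concentrated: 50% of its counts came from 2512 genes, against 2939 to 3049 genes in the transgenic libraries. It had 31 genes over 50000 normalized counts, against 10 to 17. The 4881 genes over 2-fold above the transgenic range took 36.1% of the untransformed library and between 9.41% and 10.7% of each transgenic library. The 4614 genes below the range took 4.25% and between 18.5% and 19.5%. The direction of these shares follows from how the genes were chosen, so it is no separate evidence.

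Displaced genes were most frequent at both ends of the range of levels. The classes used the mean over the 4 libraries, so a high untransformed value itself lifted a gene into a higher class. Glyma.18G036400, with a transgenic mean of 6822 and 281636 in the untransformed plant, was in the top class for that reason. The share in the top class was thus partly set by the classing. Over 2-fold outside the transgenic range were 37.9% of the 3380 genes with a mean of 50 to 100 normalized counts. The share was lowest, at 23.3%, for the 7609 genes from 500 to 1000, and reached 49.0% of the 308 genes at 10000 or more. At low levels the transgenic plants were themselves wider apart, with a median range of 1.48-fold at 50 to 100, against 1.19-fold at 500 to 1000 and 1.26-fold at 10000 or more. Genes below the range outnumbered those above it from 50 to 500, and those above outnumbered those below from 500 to 5000. From 5000 to 10000 the order turned again, with 18.9% above and 20.5% below, and at 10000 or more 29.9% of genes were above and 19.2% below. This order rests on the scaling, since with library totals more genes were below than above in every class, with 72 above and 75 below at 10000 or more.

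**Figure D4:**
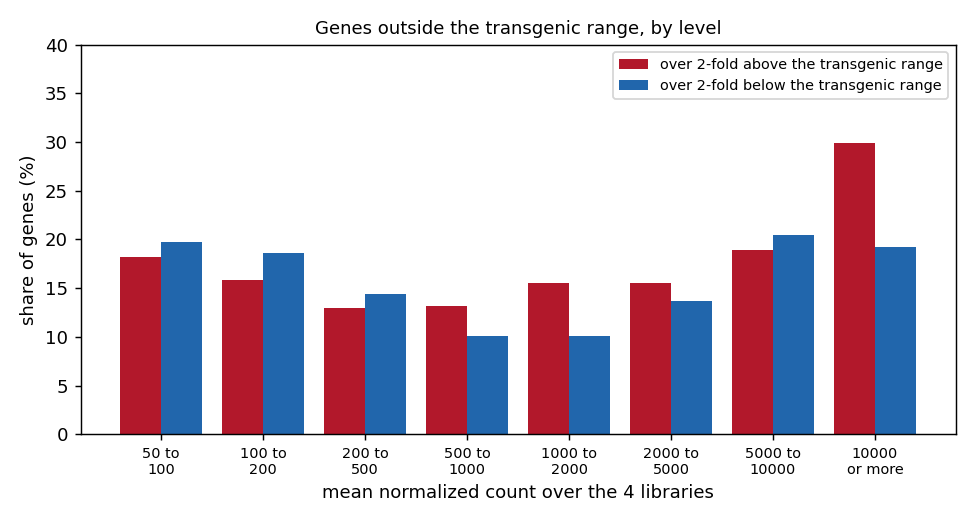
Share of genes (vertical axis, percent) over 2-fold above (red) or below (blue) the 3 transgenic plants, by mean normalized count over the 4 libraries (horizontal axis). Both shares are lowest in the middle classes, and at 10000 or more 29.9% of genes are above and 19.2% below, an order that turns with library totals (72 genes above and 75 below).

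Some genes were read in the untransformed plant and almost not in the 3 transgenic plants, or the reverse. At least 50 normalized counts in the untransformed plant with at most 3 counts in each transgenic plant were found at 137 genes (0.424% of the genes at that level in the untransformed plant). The reverse, at least 50 in each transgenic plant and at most 3 counts in the untransformed one, was found at 14 genes (0.045% of the genes at that level in all 3). These 2 rules are unequal, since the first asks for the level in 1 library and the second in 3. The 137 genes had a median of 109 and a highest value of 4320 normalized counts in the untransformed plant, and 36 of them had 0 counts in all 3 transgenic plants. Of the 137 genes, 136 lay on the 20 chromosomes, with 2 to 12 on each, and 1 had an identifier that gives no chromosome. Among them 5 pairs carried neighbouring identifiers. The 14 genes lay on 12 chromosomes, and their transgenic means had a median of 91.9 and a highest value of 177.

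Of the 14 genes, 2 had 0 counts in the untransformed plant, and they are named here after their values were seen. Glyma.07G231200, on chromosome 7, had 154, 99 and 107 raw counts in transgenic plants 1 to 3, a mean of 112 ± 7.25 normalized counts (SD, n = 3). Set against the 3 counts that a count of 0 allows, it was at least 31.7-fold lower in the untransformed library. Glyma.10G013000, on chromosome 10, had 126, 79 and 91 raw counts, a mean of 91.9 ± 6.13, and was at least 26.1-fold lower there. In the other direction Glyma.06G266700, on chromosome 6, was the most abundant gene with 0 counts in every transgenic plant. It had 484 counts in the untransformed plant, at least 618-fold higher when 3 counts are allowed over the 3 transgenic libraries together.

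At low counts the directions were closer. A gene with 0 counts in the untransformed plant and at least 1 in every transgenic plant was found 858 times, and one with 0 in every transgenic plant and at least 1 in the untransformed plant 895 times. At a minimum of 10 counts the numbers were 44 and 151, and at 100 counts 0 and 12. The 2 conditions are not symmetrical, since the first asks for counts in 3 libraries and the second for none in 3. These limits cover counting error only.

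The displaced genes were spread over the genome. By chromosome, with the size factors, the share of genes over 2-fold above the transgenic range ran from 13.1% (chromosome 20) to 16.5% (chromosomes 1 and 3). The share below ran from 12.4% (chromosome 1) to 15.6% (chromosome 5). Chromosome 8, which holds the tag insertion of transgenic plants 1 and 2, had 14.7% above and 13.5% below, inside the range of the other chromosomes. edgeR's calls in either direction ran from 47.1% of tested genes on chromosome 16 to 50.7% on chromosome 5, against 49.1% over all genes. The 166 genes whose identifiers give no chromosome had 17.5% above and 13.9% below.

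**Figure D5:**
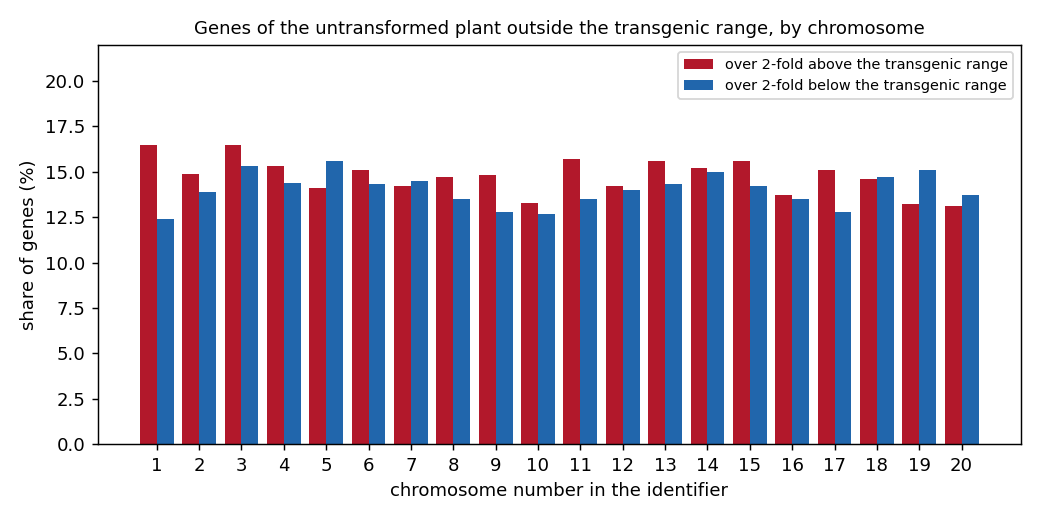
Share of genes (vertical axis, percent) over 2-fold above (red) or below (blue) the 3 transgenic plants, for the 20 chromosomes given by the identifiers (horizontal axis). Red bars run from 13.1% to 16.5% and blue bars from 12.4% to 15.6%.

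Place along a chromosome made little difference. With the identifiers of each chromosome cut into 10 equal parts in order, the share of genes over 2-fold outside the transgenic range in either direction ran from 27.4% to 30.3%. The middle parts held fewer genes at this level, with 54.3% of identifiers in the sixth part against 64.2% in the first and 66.7% in the last.

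Immediate neighbours moved together slightly more than distant genes. Spearman's rho between the log2 differences of genes next to each other was 0.0688 over 32781 pairs, and 0.0182 at 2 genes apart. It was between 0.000994 and 0.00878 at 5, 10 and 100 genes apart. This is a description across genes of the same 4 libraries, and genes are not independent replicates. Where both neighbours were over 2-fold outside the transgenic range, 59.3% were on the same side, against 48.7% to 51.0% at 5 to 100 genes apart. Neighbouring genes include tandem copies, whose counts are uncertain where they are near-identical, and the part of such copies was not tested.

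Displaced genes next to each other formed short runs. Of the genes above 65.8%, and of those below 68.5%, had no neighbour displaced the same way among the genes counted. Over all genes 14.8% were above and 14% below, so a displaced gene would often stand alone without any grouping. The share alone and the number of runs to be had without grouping were not computed. Pairs on the same side were 5.29% of immediate neighbours, against 4.11% of pairs 100 genes apart. Runs of 5 or more numbered 7 above and 5 below, and the longest held 6 genes in either direction. They are named here after their values were seen. The run above, from Glyma.02G135900 to Glyma.02G136700 on chromosome 2, had log2 differences of 1.58 to 5.65 with a median of 2.58. The runs below were Glyma.15G239200 to Glyma.15G239700 on chromosome 15, from -3.73 to -2.66 with a median of -3.26, and Glyma.18G027300 to Glyma.18G028000 on chromosome 18, from -3.25 to -1.26 with a median of -2.05.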

How the data were processed

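The authors deposited raw read counts per gene and a second table of signal, in which the counts of a library are scaled by 1 size factor. Multiplying by these factors (0.839 to 1.48) gave whole numbers within 0.01 for 100% of values. A single fold ratio of 1 gene in the authors' deposited table was not used. The tools named are HTSeq 0.6.1, HISAT2 2.1.0, DESeq2 and CASAVA 1.8, per the submitters' processing notes. The annotation, build and strand setting are not given in the sources, so overlapping, antisense and near-identical genes are uncertain. The tables hold 56044 genes, 8248 of them at 0 in all libraries, no row without a gene identifier and 0 unused columns.

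The test was edgeR 4.0.16 (R 4.3.3) with TMM scaling, edgeR's default low-count filter, group as the only term and Benjamini-Hochberg adjustment. SE is the change over the square root of F. On simulated data of this comparison (39216 genes) it recovered 47% of 2-fold and 95% of 4-fold changes, and called 26 unchanged genes. Only 100 genes were changed at each fold in that simulation, far fewer than were called in the data. The simulated untransformed library was also given the spread of the transgenic plants. The simulation therefore does not give the error rate of the calls above. Ranges used log2(normalized count + 1). Between any pair of libraries the counts had a chi-square of 16.8 or more per degree of freedom, so no library repeated another. Alternatives were limma-voom (limma 3.58.1), DESeq2 1.42.0, other scalings, filters and fold limits, a block, and left-out libraries.

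The rule named, in each direction, the 2 genes of smallest p. None of the identifiers (0) matched the 59048 genes of the RefSeq table of Glycine_max_v4.0. The gene lists by function and the tissue markers written for this comparison were therefore not run. The comparison, lists and limits were chosen with earlier results of these data known.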

Additional observations from a re-analysis of the deposited data

How the results depend on the processing

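A 2-fold minimum in edgeR's test left 4201 genes higher and 2852 lower, and a 4-fold limit on the transgenic range left 1918 above and 927 below, both by construction. Leaving out 1 transgenic library gave 9128 to 10419 higher and 7815 to 9669 lower genes in edgeR, and 5062 to 5252 genes above and 4966 to 5101 below the range. Under the other settings the numbers of edgeR calls and of genes over 2-fold outside the range stayed within 1.5 times those reported. Other counts were not recomputed under every setting, and that of genes over 8-fold below the range went from 85 to 212 with library totals. DESeq2 gave 9550 higher and 8729 lower genes, and 89.5% of edgeR's calls in each direction were among them. Scaling by library totals gave 8001 higher and 12829 lower genes in edgeR, and 3586 above and 6421 below the range; the edgeR total and the setting with transgenic 3 alone (6242 above, 5998 below) were chosen after seeing the data. With the label's replicate number as a block, edgeR gave 8303 higher and 7700 lower genes; whether these numbers pair plants could not be checked, since the untransformed group has 1 library. The 2 genes of smallest p in each direction kept their direction in all 24 recomputed values. They had been picked by p in these same libraries, so this could hardly fail and is no separate evidence. The gene list alternatives were not run. Leaving out the untransformed library leaves no comparison, and depth limits what can be said of genes at a few counts.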
